A study of Homo sapiens with 6 samples.

Results

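The genes described here are long non-coding RNAs expressed in A549, an established line of human lung adenocarcinoma. A gene was a member if its symbol was LINC followed by digits (long intergenic non-coding RNA), SNHG followed by digits (small nucleolar RNA host gene), ended in -AS and digits (antisense RNA), or was MALAT1, NEAT1 or GAS5, and if its mean log2(intensity + 1) over the 6 arrays was at least 7, an intensity of 127. Of 1633 candidates by symbol, 201 were members, among 19775 genes with a probe set of 1 annotated gene. They were 78 of 839 LINC genes, 118 of 781 antisense genes, 4 of 11 SNHG genes and MALAT1. NEAT1 lay below the level on its 1-gene probe set, and GAS5 had no such probe set. Probe sets annotated with several genes were not assigned to a gene, so no level or change is given for NEAT1 or GAS5, and NEAT1 cannot be called dim from this. In RefSeq 198 of the 201 carried the biotype lncRNA and 1 antisense RNA, and 2, LINC00973 and TNRC6C-AS1, had no current entry. The members were chosen by their level, the mean intensity over all 6 arrays, which is therefore no finding. Just inside the level were MUC12-AS1 at 7.006, DHX9-AS1 at 7.004 and LINC01881 at 7.001, and just outside were LINC01134 at 6.997, LINC02532 at 6.993 and CIRBP-AS1 at 6.991.

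Cells had been made stable by lentivirus for a tetracycline-inducible short hairpin RNA that was either non-targeting (shNTC) or directed at 1 of 2 sequences of CNOT3 (shCNOT3-1 and shCNOT3-2). Each of the 3 lines was cultured without doxycycline (DOX), which turns the hairpin on, and with it at 1 ug/ml for 72 hours, and each culture gave 1 Affymetrix array. All 6 groups are therefore A549 with an integrated hairpin vector, and the labels do not say whether a line was 1 clone or a pool. The arrays measured RNA of whole cultures, so fewer cells with an RNA and less of it per cell cannot be told apart.

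CCR4-NOT is the main complex that shortens the poly(A) tails of cytoplasmic mRNAs, and CNOT3 is one of its non-catalytic subunits. Most long non-coding RNAs are capped, spliced and polyadenylated by the machinery that makes mRNAs, yet differ in where they stay. Some leave for the cytoplasm, some remain in the nucleus and are turned over by the nuclear exosome, and others are the spliced remains of genes whose introns carry small nucleolar RNAs. Many antisense RNAs start at the promoter of a protein-coding gene and run the opposite way.

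CNOT3 itself checked the labels. With DOX 36.1% of its intensity was left in shCNOT3-1, 20.5% in shCNOT3-2 and 93.4% in shNTC. In limma, with the line as a block, its knockdown change was -1.86 on the log2 scale (adjusted p = 0.0672). Pearson correlation between arrays ran from 0.954 to 0.983. All 9 epithelial and A549 markers examined lay above the filter on dim genes. The 3 alveolar type 2 markers did too, at a summed intensity of only 278 to 530 per array against 208184 to 237556 for the epithelial list, and 2 of 7 measured markers of blood, endothelial and stromal cells (PECAM1 and COL1A1) passed.

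Few of the 201 RNAs changed past the test when CNOT3 was knocked down. OIP5-AS1 fell and LINC01588 rose, and no other member reached an adjusted p under 0.05 in limma. The knockdown change is the mean log2 DOX change of both shCNOT3 lines. At that threshold 37 of 12639 genes tested were called, or 0.293%, against 2 of the 201 members, or 0.995%. The background was 0.142% for higher genes, where LINC01588 was the 1 member, and 0.15% for lower genes, where OIP5-AS1 was. An adjusted p under 0.1 was reached by 1.43% of all genes and by 3 members, LINC02762 beside those named. All 201 passed the filter on dim genes. At an unadjusted p under 0.05 there were 13 higher members (6.47%) and 14 lower (6.97%), where the background of all genes tested was 7.45% and 7.09%. These shares of members are close to the background and say nothing particular about long non-coding RNA. In 26 of these 27 members both induced shCNOT3 arrays lay outside the range of the other 4 arrays, on the same side. The 27 were picked by p on the same arrays, so such separation is largely built in and adds no support. Over all members both induced shCNOT3 arrays lay above the other 4 in 31 and below them in 32. These are 15.4% and 15.9%, against 16% and 12.8% of all genes tested. No repeat cultures are described, so the p-values rest on these 3 lines, 1 pair of arrays each. Their spread takes in the shNTC change and is drawn toward a variance shared by genes of like intensity. Each SE given below comes from this fit and is not the spread between the 2 hairpins alone.

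OIP5-AS1, also known as cyrano, is a conserved, abundant RNA. It carries an unusually complementary site for the microRNA miR-7 and is known for directing the destruction of that microRNA. The mature miR-7-5p is shown because it is the small RNA that OIP5-AS1 binds. It was not measured on these arrays. Capitals mark its seed, bases 2 to 8.
hsa-miR-7-5p: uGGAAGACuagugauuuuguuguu
The OIP5-AS1 intensity was 6718 without DOX and 6097 with it in shNTC, 5602 and 1609 in shCNOT3-1, then 5644 and 2724 in shCNOT3-2. Both induced shCNOT3 arrays were well below the other 4, which lay close together. The knockdown change was -1.42 ± 0.20 (SE of the fit, n = 2 hairpins), with -1.80 in shCNOT3-1, -1.05 in shCNOT3-2 and -0.14 in shNTC (limma, adjusted p = 0.0260). Another probe set gave -1.55, with -1.86 and -1.23 in the hairpins against 0.30 in shNTC. The last gave -1.35, with -1.91 and -0.80 against -0.74 in shNTC, so there shCNOT3-2 and shNTC differed little. The OIP5 gene on the other strand encodes a centromere assembly factor and did not pass the test. OIP5 changed by -0.07 in shCNOT3-1, -0.41 in shCNOT3-2 and -0.60 in shNTC (limma, adjusted p = 0.675).

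The OIP5-AS1 promoter is printed from 250 bases before to 50 after its RefSeq start (GRCh38.p14, chr15:41283740-41284039, plus strand). Capitals mark an E-box, CACGTG, and the motif TGACG, the core of the site read by cAMP response element binding proteins.
OIP5-AS1 promoter: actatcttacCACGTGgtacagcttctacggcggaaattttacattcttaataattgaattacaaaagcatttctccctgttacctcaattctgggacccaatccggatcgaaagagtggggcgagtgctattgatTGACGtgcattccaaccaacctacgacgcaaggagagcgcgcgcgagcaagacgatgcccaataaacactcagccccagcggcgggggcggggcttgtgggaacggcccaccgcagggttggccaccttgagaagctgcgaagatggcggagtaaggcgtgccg
This window had a GC share of 54.3% and 23 CpG sites.

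LINC01588, an intergenic RNA of chromosome 14, was the member with the highest knockdown change. Its intensity was 329 and 264 in shNTC without and with DOX, 260.1 and 947 in shCNOT3-1, then 256.1 and 712 in shCNOT3-2. The 4 arrays without CNOT3 knockdown were near each other and both induced shCNOT3 arrays were far above them. The change was 1.67 ± 0.24 (SE, n = 2 hairpins), with 1.86 and 1.47 in the hairpins against -0.32 in shNTC (limma, adjusted p = 0.0268). The probe set used is of a type, ending in _x_at, that can also bind other transcripts. In all 18 members were read from such a probe set, LINC00621, URB1-AS1, LINC01000, SNHG19 and MALAT1 among them. A second one without that flag gave 2.03, with 1.98 and 2.07 in the hairpins against -0.20 in shNTC, and another, dim one gave 1.72.

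The calls of OIP5-AS1 and LINC01588 rest on the model. Without an intensity trend in the variance their adjusted p in limma were 0.261 and 0.220, without the filter on dim genes 0.0891 and 0.115, with probe sets averaged per gene 0.0914 and 0.0988, and without shCNOT3-1 0.112 and 0.132, at changes of -1.05 and 1.47.

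The LINC01588 promoter is shown to set it beside that of OIP5-AS1 (GRCh38.p14, chr14:50007471-50007770, minus strand). It held a single CpG, 1 in 300 bases, at the same GC share of 54.3%, and none of the motifs searched, so it has no capitals.
LINC01588 promoter: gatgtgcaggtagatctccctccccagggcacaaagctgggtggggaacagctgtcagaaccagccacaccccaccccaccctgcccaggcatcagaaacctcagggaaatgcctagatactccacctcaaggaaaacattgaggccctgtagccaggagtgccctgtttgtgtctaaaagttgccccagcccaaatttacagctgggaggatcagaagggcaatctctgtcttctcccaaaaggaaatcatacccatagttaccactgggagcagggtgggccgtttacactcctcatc

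**Figure D1:**
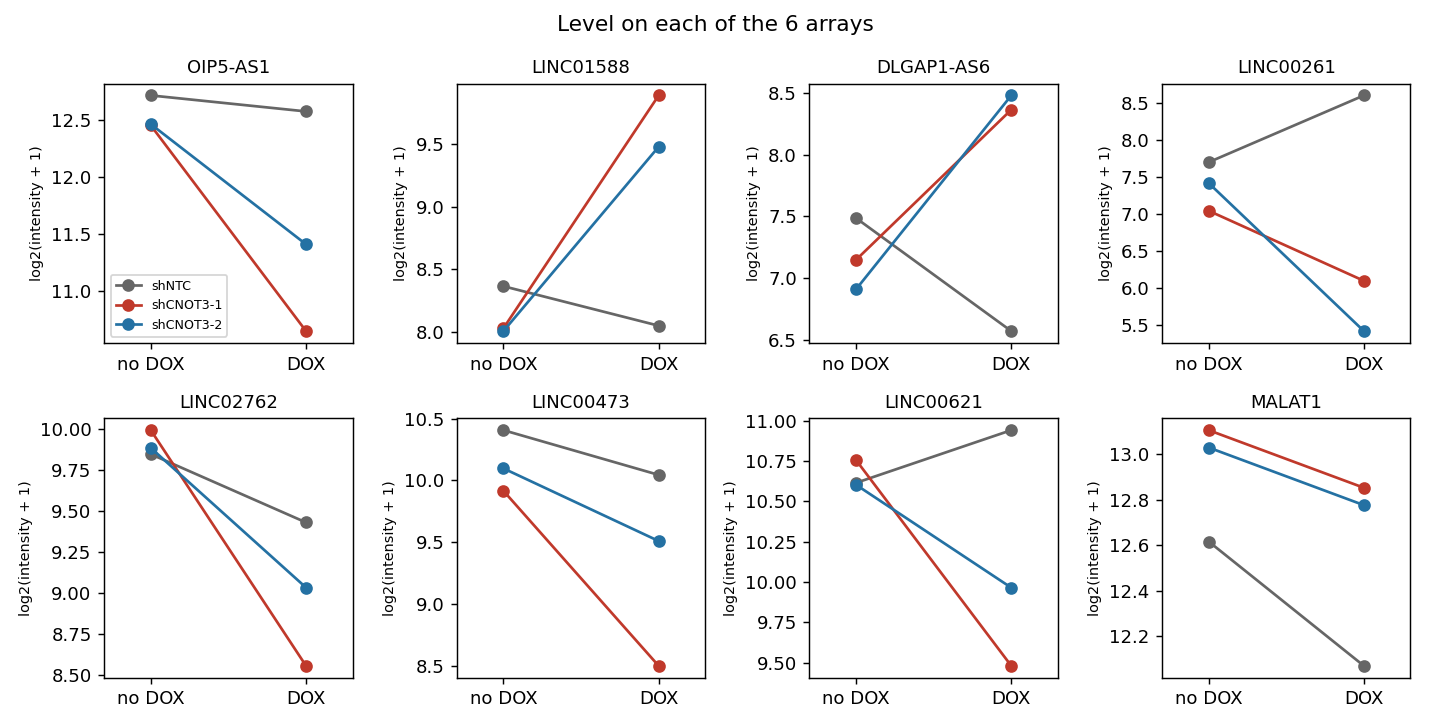
Each panel plots log2(intensity + 1) of 1 long non-coding RNA on the 6 arrays, with a line joining the arrays of 1 cell line without and with DOX. The vertical axes differ between panels and do not start at 0. OIP5-AS1, LINC02762, LINC00473 and LINC00621 were lowest on the induced shCNOT3 arrays, and LINC01588 and DLGAP1-AS6 highest. MALAT1 was lower with DOX in every line on the probe set plotted, though not on all of its probe sets.

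A size rule was set beside the test: at least 2-fold with both hairpins, in 1 direction, and a control line that moved that way by less than 0.5 of the weaker hairpin. Above it stood LINC01588 and DLGAP1-AS6, 2 members (0.995%) against 82 of all genes tested (0.649%). Below it stood OIP5-AS1 alone, 0.498% of members against 54 genes or 0.427%. DLGAP1-AS6, transcribed opposite the gene of a synaptic scaffold protein on chromosome 18, had an intensity of 178 and 93.9 in shNTC, 141 and 328 in shCNOT3-1, then 119 and 356 in shCNOT3-2. It went down with DOX in the control line and up in both knockdown lines. The change was 1.39 ± 0.36 (SE, n = 2 hairpins), with 1.22 and 1.57 in the hairpins against -0.92 in shNTC (limma, adjusted p = 0.143).

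Of 78 intergenic RNAs, 8 were lower and 4 higher at an unadjusted p under 0.05 (10.3% and 5.13%, beside 7.09% and 7.45% of all genes tested), and the class was not tested against other genes. LINC00261, which neighbours the gene of the endodermal transcription factor FOXA2 and is expressed with it in endoderm, was the lowest of all members. Its intensity was 207 and 387 in shNTC without and with DOX, 131 and 67.5 in shCNOT3-1, then 169.9 and 41.8 in shCNOT3-2. It was higher with DOX in the control line and lower in both others. The knockdown change was -1.47 ± 0.43 (SE, n = 2 hairpins), with -0.94 in shCNOT3-1, -1.997 in shCNOT3-2 and 0.90 in shNTC (limma, adjusted p = 0.181). FOXA2, looked up because of this neighbour relation after the LINC00261 values were seen, read 1615 and 1852 in shNTC, 1919.8 and 887 in shCNOT3-1, then 1786 and 896 in shCNOT3-2. FOXA2 was thus lower on both induced shCNOT3 arrays, at -1.11 and -0.99 against 0.20 in shNTC, and just missed the threshold (limma, adjusted p = 0.0577). The LINC00261 promoter is shown because its makeup is far from the others printed (GRCh38.p14, chr20:22578593-22578892, minus strand). Capitals mark CGTCA, which is TGACG on the other strand, and TTTATA, which is the TATA box TATAAA on the other strand.
LINC00261 promoter: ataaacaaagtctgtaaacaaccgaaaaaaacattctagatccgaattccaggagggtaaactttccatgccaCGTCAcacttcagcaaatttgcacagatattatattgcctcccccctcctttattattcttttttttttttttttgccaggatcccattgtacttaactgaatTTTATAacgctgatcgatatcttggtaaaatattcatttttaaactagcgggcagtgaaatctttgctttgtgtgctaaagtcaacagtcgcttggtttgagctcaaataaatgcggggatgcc
Its GC share was 37.0%, with 8 CpG sites.

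LINC00473 is a cAMP-induced RNA known for its expression in lung adenocarcinoma that has lost the kinase LKB1, as A549 has. Its intensity was 1356 and 1055 in shNTC without and with DOX, 966 and 362 in shCNOT3-1, then 1095 and 729 in shCNOT3-2. It was lower with DOX in all 3 lines, and the induced shCNOT3 arrays were the lowest. The knockdown change was -0.999 ± 0.25 (SE, n = 2 hairpins), with -1.41 and -0.59 in the hairpins against -0.36 in shNTC (limma, adjusted p = 0.129). The promoter is printed because the RNA is known as a target of cAMP signalling (GRCh38.p14, chr6:165987990-165988289, minus strand). Capitals mark TGACG and, on the other strand, CGTCA.
LINC00473 promoter: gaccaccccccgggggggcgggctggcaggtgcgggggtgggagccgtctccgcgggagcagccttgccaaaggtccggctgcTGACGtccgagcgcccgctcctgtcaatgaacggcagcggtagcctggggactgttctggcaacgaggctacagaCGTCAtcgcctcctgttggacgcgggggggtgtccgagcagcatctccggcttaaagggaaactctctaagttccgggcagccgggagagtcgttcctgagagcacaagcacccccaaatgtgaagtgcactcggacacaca
The full palindrome TGACGTCA was absent from this window. The TGACG motif was added to the search with LINC00473 in view.

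LINC02762 and LINC00621 were also lower on both induced shCNOT3 arrays than on any other. LINC02762 read 919.6 and 689 in shNTC without and with DOX, 1018 and 375 in shCNOT3-1, then 944 and 523 in shCNOT3-2. Its change was -1.14 ± 0.24 (SE, n = 2 hairpins; limma, adjusted p = 0.0890), though another, dimmer probe set gave 0.64. LINC00621 read 1566 and 1964 in shNTC, 1727 and 713 in shCNOT3-1, then 1553 and 998 in shCNOT3-2. It went up slightly with DOX in the control line, and its knockdown change was -0.96 ± 0.23 (SE, n = 2 hairpins; limma, adjusted p = 0.114). The other intergenic RNAs that were lower at an unadjusted p under 0.05 were LINC01023 (-0.76), LINC01963 (-0.70), LINC00173 (-0.69) and LINC00674 (-0.61), with adjusted p from 0.217 to 0.335. Their hairpins gave like values for LINC00173, at -0.66 and -0.72, and unlike ones for LINC01963, at -0.96 and -0.43. A second, dimmer LINC00173 probe set gave 0.01 and -2.34 in the hairpins. Other LINC00674 probe sets gave mean changes of -0.29, 0.01 and 0.22.

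Beside LINC01588, the intergenic RNAs that were higher at an unadjusted p under 0.05 were LINC01000 (0.73), LINC00592 (0.66) and LINC01504 (0.58). LINC01504 had a close match between hairpins, at 0.54 and 0.63 against -0.22 in shNTC. LINC00592 came mostly from shCNOT3-1, at 1.11 against 0.20. A second probe set of LINC01000 gave only 0.11. LINC02352, with the next highest mean change of the same sign in both hairpins (0.69, unadjusted p = 0.0535 in limma), came almost wholly from shCNOT3-2, at 1.29 against 0.10.

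Of 118 antisense RNAs, 8 were higher and 5 lower at an unadjusted p under 0.05 (6.78% and 4.24%, beside 7.45% and 7.09% of all genes tested). Their difference from the intergenic RNAs was not tested. After DLGAP1-AS6 the highest was ARHGAP5-AS1, which starts beside the ARHGAP5 gene. Its intensity was 339 and 373 in shNTC without and with DOX, 281 and 683 in shCNOT3-1, then 315 and 484 in shCNOT3-2. Only the induced shCNOT3 arrays stood above the rest. The change was 0.95 ± 0.25 (SE, n = 2 hairpins), with 1.28 and 0.62 in the hairpins against 0.13 in shNTC (limma, adjusted p = 0.141). FAM131B-AS2 gave 0.85, but its other probe sets gave -0.40 and -0.12. PRKCQ-AS1, opposite the gene of protein kinase C theta, gave 0.68, and ST20-AS1 gave 0.67 with 0.36 in shNTC. URB1-AS1 gave 0.56, ASH1L-AS1, opposite the gene of a histone methyltransferase, 0.55, and AGAP2-AS1 0.53. AGAP2-AS1 had the closest hairpins of these, at 0.51 and 0.55 against -0.25 in shNTC. PRKCQ-AS1 had a second probe set at the member level that gave -0.14. Adjusted p for these 6 after ARHGAP5-AS1 ran from 0.174 to 0.334.

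The antisense RNAs lower at an unadjusted p under 0.05, beside OIP5-AS1, were ASB16-AS1, HOXA-AS2, ZNF232-AS1 and ZBED5-AS1. ASB16-AS1 had an intensity of 173 and 119 in shNTC, 198 and 104 in shCNOT3-1, then 215 and 113 in shCNOT3-2. It was lower with DOX in every line, by 0.92 in each hairpin and by 0.54 in shNTC on the log2 scale. HOXA-AS2, which lies within the HOXA homeobox cluster, gave -0.79, but another probe set of it gave 0.77 with both hairpins higher, so its direction depends on the probe set. ZNF232-AS1 gave -0.58 and 0.03 on its other probe set. ZBED5-AS1 gave -0.54, with -0.64 and -0.44 in the hairpins against -0.24 in shNTC. Adjusted p for these 4 ran from 0.222 to 0.299.

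**Figure D2:**
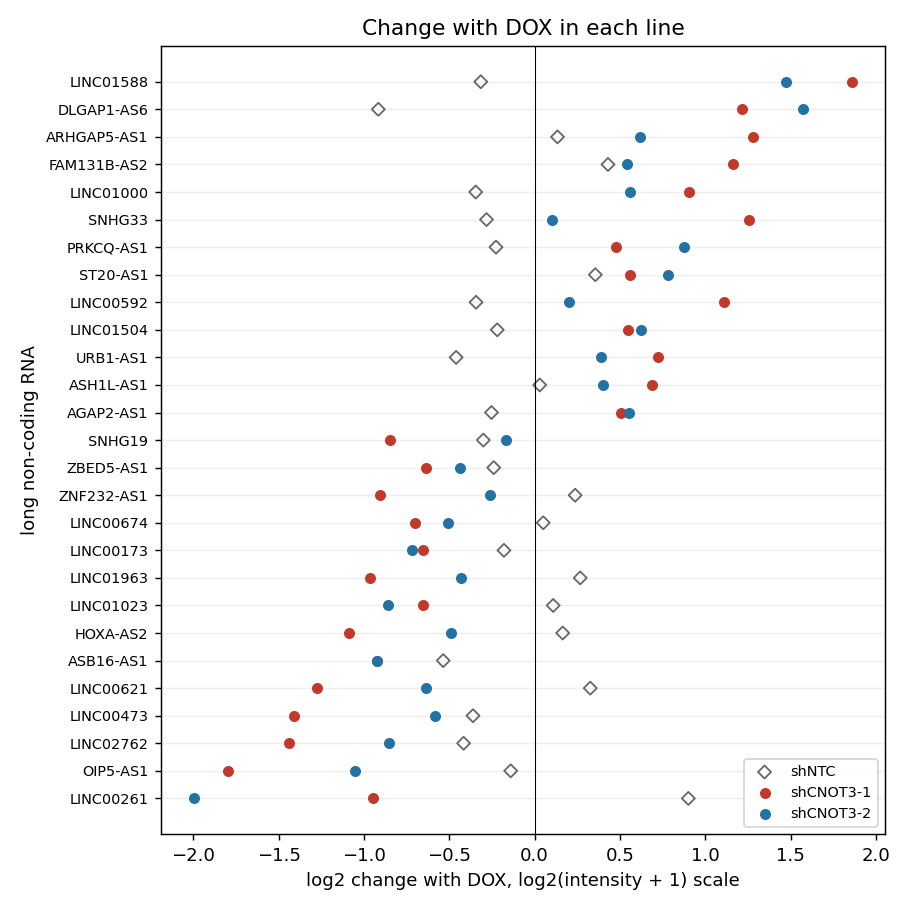
The 27 members with an unadjusted p under 0.05 are ordered by their mean hairpin change, with the log2 DOX change of each line on the horizontal axis. Open diamonds are shNTC and filled circles the shCNOT3 lines. The hairpin circles lie on the same side of 0 in every row. Those of ASB16-AS1, at -0.92 in both lines, coincide. The shNTC diamond of LINC00261 lies at 0.90 and that of DLGAP1-AS6 at -0.92, across 0 from their hairpins.

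SNHG genes carry small nucleolar RNAs in their introns, and their spliced transcripts are typically removed by nonsense-mediated decay once ribosomes read them. The 4 members moved in different ways. SNHG19, which hosts SNORD60, had an intensity of 6771 and 5498 in shNTC, 5234 and 2903 in shCNOT3-1, then 5614 and 4990.2 in shCNOT3-2. It was lower with DOX everywhere, most in shCNOT3-1, and gave -0.51 ± 0.20 (SE, n = 2 hairpins; limma, adjusted p = 0.293). SNHG33, which hosts SNORA63D and SNORA63E, read 851 and 700.1 in shNTC, 808 and 1934 in shCNOT3-1, then 813 and 871 in shCNOT3-2. Only shCNOT3-1 moved far, at 1.26 against 0.10 in shCNOT3-2, and the mean was 0.68 ± 0.28 (SE, n = 2 hairpins; limma, adjusted p = 0.308). A second SNHG33 probe set gave 1.08 and -0.55. SNHG32, which hosts SNORD48 and SNORD52, read 3626 and 2754 in shNTC, 3349 and 5370.3 in shCNOT3-1, then 3755 and 3207 in shCNOT3-2. Its hairpins were opposite, at 0.68 and -0.23. SNHG17, which hosts the SNORA71 family, read 6556 and 5629 in shNTC, 5932 and 5943 in shCNOT3-1, then 6420.1 and 7023 in shCNOT3-2. Its hairpin changes were 0.00 and 0.13, and those of a second probe set -0.25 and -0.04.

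Many genes that host small nucleolar RNAs begin with a C and a run of pyrimidines, the terminal oligopyrimidine start that marks transcripts of the translation machinery. The first bases of the 4 hosts are shown for that reason, 20 bases on each side of the RefSeq start in GRCh38.p14, and capitals mark the start C and the pyrimidines that follow it without a break. They come from chr16:2155339-2155378 on the minus strand for SNHG19, chr6:31834896-31834935 on the plus strand for SNHG32, chr3:183447588-183447627 on the plus strand for SNHG33 and chr20:38435309-38435348 on the minus strand for SNHG17.
SNHG19: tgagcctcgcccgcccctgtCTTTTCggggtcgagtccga
SNHG32: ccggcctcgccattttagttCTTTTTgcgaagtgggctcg
SNHG33: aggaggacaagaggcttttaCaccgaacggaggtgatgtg
SNHG17: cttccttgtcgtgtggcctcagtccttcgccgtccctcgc
SNHG19 and SNHG32 had the start, defined as a C with at least 4 pyrimidines after it, with a tract of 6 bases each. SNHG33 had 1 base of it and SNHG17 none. The pair with the tract did not share a direction. Over all members 7 of 166 promoters had it (4.22%), against 4.04% of all 27305 RefSeq promoters.

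MALAT1 is an abundant RNA of nuclear speckles whose end is a folded triple helix rather than a poly(A) tail. Its intensity was 6279 and 4301 in shNTC without and with DOX, 8809 and 7393 in shCNOT3-1, then 8356 and 7013 in shCNOT3-2. On this probe set it was lower with DOX in every line, by 0.55 in shNTC and by 0.25 in each hairpin on the log2 scale. Its knockdown change of -0.25 ± 0.19 (SE, n = 2 hairpins) did not pass (limma, adjusted p = 0.584). The 2 uninduced shCNOT3 arrays were above both shNTC arrays. The other MALAT1 probe sets gave knockdown changes from -0.68 to 0.58. The next brightest, at a mean log2 of 12.50, gave 0.07 in shNTC and -0.24 and 0.11 in the hairpins. Some others were higher with DOX in every line and some lower in every line, so the direction with DOX depends on the probe set. FGD5-AS1, another bright antisense RNA, read 7431 and 5776 in shNTC, 6878 and 6958 in shCNOT3-1, then 7263 and 5906 in shCNOT3-2. It was lower with DOX in shNTC and shCNOT3-2 and flat in shCNOT3-1, at 0.02.

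The hairpins shared a direction in 117 of the 201 members. Both were higher in 60 (29.9%, against 33.2% of all genes tested), both lower in 57 (28.4%, against 26.9%) and opposite in 84 (41.8%, against 39.9%). Across members the Pearson correlation between the 2 hairpins' log2 changes was 0.339 (Spearman 0.280), against 0.335 over all genes tested at or above the same level and 0.261 over all genes tested. It was 0.395 among LINC genes and 0.294 among antisense genes. These are correlations across genes, which share the 2 lines and are not independent replicates. In shCNOT3-1 14 members were at least 2-fold different from no DOX and in shCNOT3-2 10 (6.97% and 4.98%, against 6.87% and 6.48% of all genes tested), and OIP5-AS1, LINC01588 and DLGAP1-AS6 were the 3 in both. The largest disagreements were LINC01089, at -1.73 in shCNOT3-1 and 0.35 in shCNOT3-2, LINC00963 at 0.65 and -1.26, NINJ2-AS1 at 1.73 and -0.11, and LINC01875 at 0.12 and -1.58. NINJ2-AS1 had an intensity of 206 without and 685 with DOX in shCNOT3-1 and of 219 and 202 in shCNOT3-2, and 248 and 207 in shNTC, so 1 array was far from the other 5. LINC01089 gave -0.17 and -0.05 on a second probe set of similar brightness, where that disagreement was not seen. LINC00963 gave -0.50 and -0.93 on a dimmer probe set, the same direction in both hairpins. A dimmer NINJ2-AS1 probe set gave 0.36 and -0.40, still opposite. LINC01875, at a mean log2 of 7.008, was a member only through its high uninduced shCNOT3-2 array, at 7.66. Its change of -1.58 is counted from that same array.

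**Figure D3:**
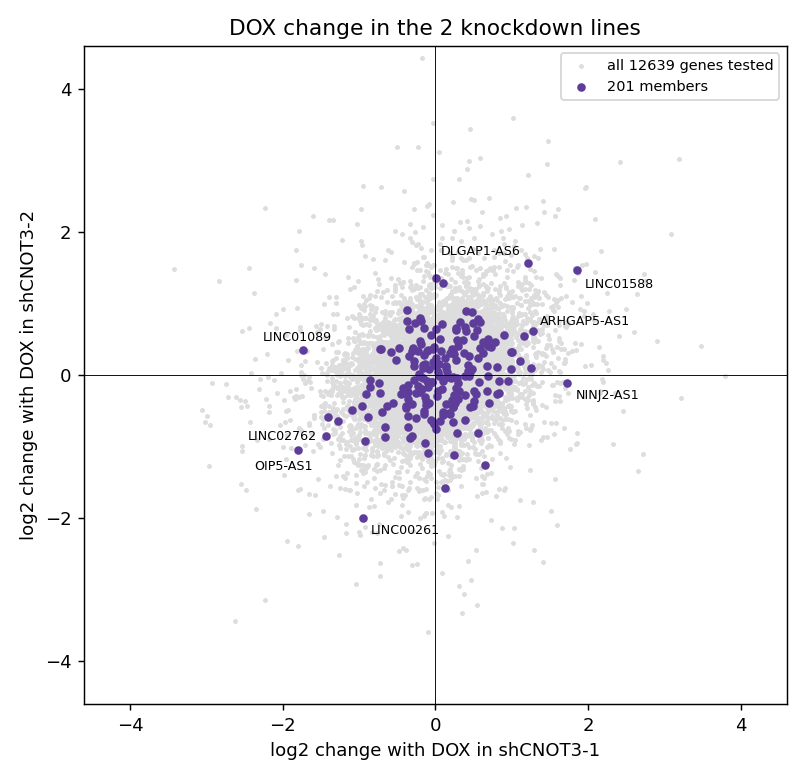
Each point is a gene, with its log2 DOX change in shCNOT3-1 on the horizontal and in shCNOT3-2 on the vertical axis. The 201 members are dark over all 12639 genes tested in grey. OIP5-AS1 (-1.80, -1.05), LINC01588 (1.86, 1.47) and DLGAP1-AS6 (1.22, 1.57) lie far out in the quadrants of shared direction, NINJ2-AS1 (1.73, -0.11) and LINC01089 (-1.73, 0.35) outside them.

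The control line also differed with DOX. In shNTC 130 of 201 members were lower with DOX (64.7%), against 51.2% of all genes tested and 50.3% of the 3564 genes tested at log2 7 to 9, a level range in which most members lie. The median change was -0.13 for members, -0.01 for all genes tested and -0.00 for that level range. By class it was -0.09 for LINC genes, where 44 of 78 were lower, -0.17 for antisense genes, where 81 of 118 were lower, and -0.29 for the 4 SNHG genes, all lower. In the knockdown lines the members' medians were 0.05 and -0.03 beside 0.05 and 0.02 over all genes tested, and 45.3% and 53.2% were lower against 45.5% and 48.2%. The shift in shNTC rests on 1 pair of arrays and has no replicate check. On those arrays the ACTB 3' to 5' probe ratio, a measure of RNA integrity, was 1.58 without and 1.47 with DOX, while it went up from 1.33 to 1.42 and from 1.36 to 1.45 in the knockdown lines. The same ratio for GAPDH went from 0.980 to 0.966 in shNTC, from 0.980 to 1.03 in shCNOT3-1 and from 1.09 to 1.05 in shCNOT3-2, so it did not set the control line apart from both others. The part of these ratios in the shift was not tested.

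At least 2-fold changes in shNTC were found for 7 members (3.48%, against 4.01% of all genes tested), all antisense RNAs, 5 lower and 2 higher. DHX9-AS1 went from 217 to 75.2 in shNTC, from 132 to 129 in shCNOT3-1 and from 109 to 141 in shCNOT3-2. MORC2-AS1 went from 322 to 115 in shNTC, from 252 to 229 in shCNOT3-1 and from 155 to 126 in shCNOT3-2. RIPOR3-AS1 was at -1.16 and THUMPD3-AS1 at -1.07 in shNTC. These 4 were read near the level that makes a member, and their induced shNTC array was lower than the other 5 in each case. DHX9-AS1 reached that level only through its high uninduced shNTC array, from which its fall is counted. Other THUMPD3-AS1 probe sets gave -0.67, -0.49 and -0.01 in shNTC.

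**Figure D4:**
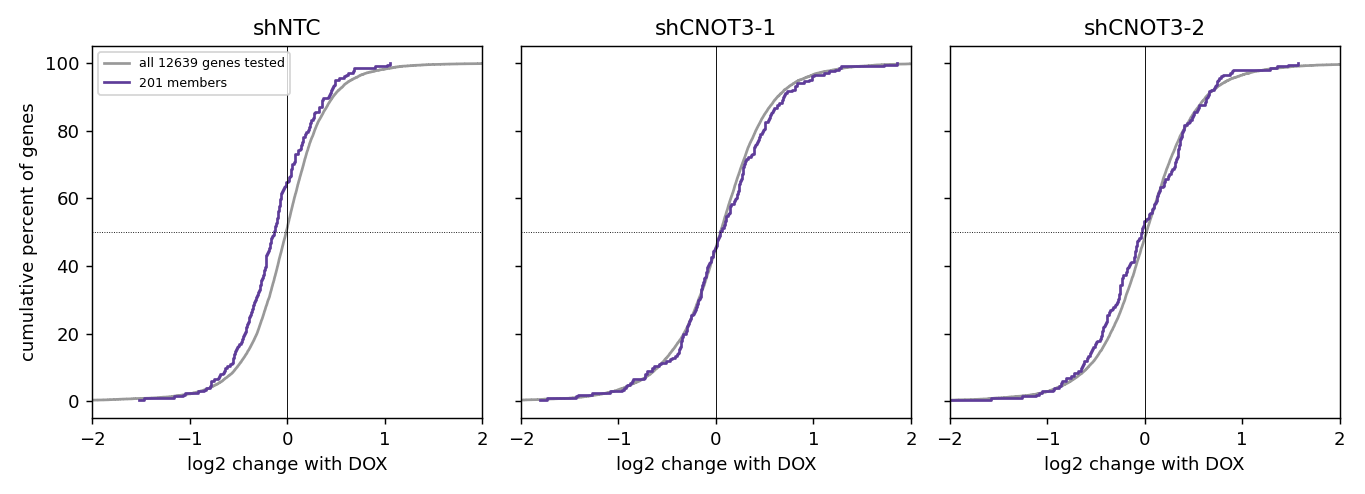
Each panel gives, for 1 line, the cumulative percent of genes (vertical axis) up to a given log2 change with DOX (horizontal axis, shown from -2 to 2), for the 201 members in purple and all 12639 genes tested in grey. The curves lie close together in shCNOT3-1 and shCNOT3-2. In shNTC the members' curve is shifted to the left and crosses 0 at 64.7% where that of all genes crosses at 51.2%.

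A second limma model tested the change in the shCNOT3 lines beyond that in shNTC, with a DOX term and 1 residual degree of freedom. No gene of the 12639, so 0% of them, and no member was called. At an unadjusted p under 0.05 there were 8 higher members (3.98%, against 4.49% of all genes tested) and 3 lower (1.49%, against 3.92%). The lower ones were LINC00261 (-2.37), OIP5-AS1 (-1.28) and LINC00621 (-1.28). Of these LINC00261 was a member only through its high induced shNTC array. Among the higher were DLGAP1-AS6 (2.31), LINC01588 (1.98), LINC00537 (1.44, with -0.79 in shNTC), MICA-AS1 (1.44) and URB1-AS1 (1.02). DHX9-AS1 (1.69), THUMPD3-AS1 (1.34) and MORC2-AS1 (1.25) completed the list. Of these DHX9-AS1 was a member only through its high uninduced shNTC array, which also enters its change beyond shNTC. In these 3 and in MICA-AS1 the shNTC value was at least 2-fold lower with DOX, while their knockdown changes were 0.17, 0.27, -0.22 and 0.39. Adjusted p for these 11 ran from 0.280 to 0.593 in limma.

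For 98 of the 118 antisense members the gene whose symbol they share was tested too. The knockdown change had the same direction in antisense RNA and partner in 53 pairs and opposite directions in 45, and the Pearson correlation of their knockdown changes was 0.000283 (Spearman -0.0262), a description across genes that share the 6 arrays. In those pairs 8 antisense RNAs (8.16%) and 9 partners (9.18%) had an unadjusted p under 0.05, beside 14.5% of all genes tested. No pair had both, which at these counts says little, and no partner was called. ARHGAP5 gave -0.29 where ARHGAP5-AS1 gave 0.95, PRKCQ gave 0.43 where PRKCQ-AS1 gave 0.68, and URB1 gave 0.12 where URB1-AS1 gave 0.56. Of the partners, PRKAG2, a subunit of the energy sensor AMPK, gave 0.82 and the calcium pump gene ATP2B1 -0.74, while PRKAG2-AS1 gave 0.23 and ATP2B1-AS1 -0.19. These partners were named after their values were seen.

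**Figure D5:**
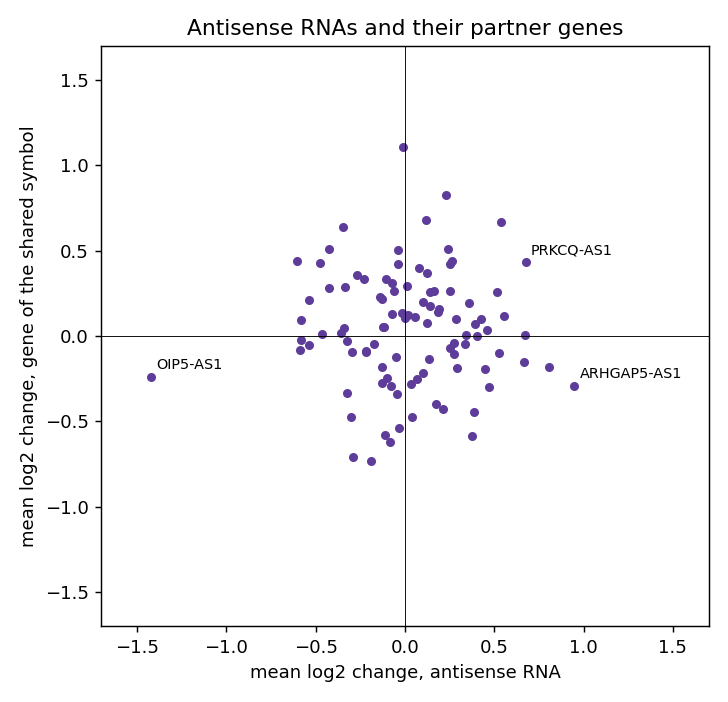
Each of the 98 points is an antisense RNA, with its mean log2 change over both hairpins on the horizontal axis and that of the gene with the shared symbol on the vertical axis. The points form a round cloud about 0, and OIP5-AS1 (-1.42) and ARHGAP5-AS1 (0.95) stand far out on the horizontal axis over partners at -0.24 and -0.29.

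Position and sequence were described for the 166 of 201 members found in the RefSeq promoter table (GRCh38.p14). In 40 of them (24.1%) a protein-coding gene on the opposite strand started within 1000 bases upstream or with a slight overlap, the arrangement of a divergent promoter. The share among other promoters was not counted. The 40 were 36 antisense genes, 3 LINC genes and SNHG19, which starts beside TRAF7. In the 34 pairs with a tested neighbour, 21 shared a direction and 13 did not, with a Pearson correlation of 0.0524 across genes. The member had an unadjusted p under 0.05 in limma in 6 of the 34 pairs, and the neighbour in 6 of the 34. The background was 14.5% of all genes tested. No pair had both, which at these counts says little. The neighbour DR1, which holds down the start of transcription at the TATA-binding protein, fell by 1.36 on the log2 scale (limma, adjusted p = 0.0249), while the divergent CCDC18-AS1 gave 0.38. DR1 was named after its value was seen. URB1-AS1, ZBED5-AS1 and ARHGAP5-AS1 start beside the genes they are named for, ASB16-AS1 beside TMUB2 and FAM131B-AS2 beside ZYX.

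The members' promoters were richer in GC than those of long non-coding RNA genes at large. The median GC share was 63.3% with 21.5 CpG sites in 300 bases, against 50.0% and 5 sites over 11462 RefSeq long non-coding RNA promoters and 65.3% and 26 sites over the promoters of genes tested. Motifs were searched on both strands. TATAAA was in 15 members (9.04%, against 12.0% of all 27305 promoters), CACGTG in 10 (6.02%, against 7.43%), and TGACG in 53 (31.9%, against 25.01%). Against the promoters of genes tested, of which 5.82% held TATAAA, 10.3% CACGTG and 33.9% TGACG, the members were higher for TATAAA and lower for TGACG, so neither direction holds for both backgrounds. The palindrome TGACGTCA, which also counts as TGACG, was in 3 (1.81%, against 1.98%): LINC03011, HHIP-AS1 and ZNF143-AS1, whose knockdown changes were 0.35, -0.13 and -0.12. Among the 24 members with an unadjusted p under 0.05 and a promoter in the table, 3 held TATAAA, 2 CACGTG and 8 TGACG. A match of letters is a description and not a binding site.

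Small RNA genes lay within the span of 11 members in RefSeq. Beside the SNHG genes these were, for example, EPB41L4A-AS1, which spans SNORA13, THAP9-AS1, which spans SNORD143 and SNORD144, and TTC28-AS1, which spans 2 copies of the microRNA gene MIR3199. Their knockdown changes were -0.13, 0.07 and -0.47, and none had an unadjusted p under 0.05. The arrays' cRNA does not show whether the host transcript or the small RNA was affected.

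Genes of the machinery that makes, holds or degrades long non-coding RNA were also read, as lists of which no member was called. At an unadjusted p under 0.05 in limma the background was 14.5% of all genes tested. Of 8 proteins that bind small nucleolar RNAs 6 were tested, and NOP10, part of H/ACA particles, was the 1 with an unadjusted p under 0.05, at 0.28. Of 10 factors of nonsense-mediated decay, which removes spliced SNHG transcripts, 5 were tested and 0 had an unadjusted p under 0.05 in limma. SMG5 was lowest at -0.38 and SMG8 highest at 0.25. Both hairpins were lower for 4 of the 5 (80%, against 26.9% of all genes tested) and higher for 1. The median change of these decay factors was -0.18 beside 0.03 for all genes tested. In shNTC their median was -0.16, and 4 of the 5 (80%) were lower with DOX there, against 51.2% of all genes tested. The lower values of this list are thus not particular to the knockdown lines. Of 12 paraspeckle proteins, which assemble on NEAT1, 11 were tested, with NUDT21, a cleavage factor of mRNA ends, higher at 0.63 and HNRNPH3 lower at -0.38. Of 11 symbols listed for the nuclear exosome and its adaptors 1, ARS2, is an older name of SRRT, and the other 10 were tested. RBM7, which guides the exosome to nuclear non-coding RNA, was higher at 0.60 by the same threshold. In that list both hairpins were higher for 6 genes (60%, against 33.2% of all genes tested), including the helicase MTREX (0.33), ZFC3H1 (0.42), EXOSC3 (0.39) and the nuclease DIS3 (0.31), and the list's median change was 0.29 beside 0.03 for all genes tested. Of these only RBM7 had an unadjusted p under 0.05. Both hairpins were lower for 2 genes, SRRT (-0.48), which links the cap-binding complex to RNA decay, and PABPN1 (-0.25), which binds nuclear poly(A) tails, and opposite for the other 2.

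Without DOX the 3 lines also differed in some members, with 1 array each and no test. GAS6-AS1 had an intensity of 66.9 in shNTC, 177 in shCNOT3-1 and 133 in shCNOT3-2. LINC01016 had 343, 189 and 145 in the same order, and MORC2-AS1 had 322, 252 and 155. Over all members the median range of log2 level among the 3 uninduced arrays was 0.36, and the median size of the knockdown change was 0.27. For all genes tested these were 0.30 and 0.24. A range over 3 arrays and a mean over 2 hairpins are unlike measures, so their sizes cannot be set against each other.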

How the data were processed

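RNA of 3 A549 lines, each with and without DOX, was labelled as biotinylated cRNA from 500 ng of total RNA and read on 6 arrays, per the labels' protocols. The deposited values are linear intensity per probe set, computed by the authors with MAS5 per the submitters' processing notes, with settings not given in the sources used here; the mean trimmed by 2% at each end was 500.1 on every array. The number of arrays limits the precision. Of 54675 probe sets, 62 were controls, 41097 were annotated with 1 gene, 1801 with several and 11777 were not listed. Values were taken as log2(intensity + 1), which shrinks changes at low intensities, though little at the mean levels tested. Large changes were more common among dim genes. In shNTC 507 of all 12639 genes tested were at least 2-fold different, but only 202 of the 10751 at log2 7 or above. A gene was its brightest 1-gene probe set. Genes with a mean log2 at or above the median of non-control probe sets (5.96, an intensity of 61.3) were tested with limma 3.58.1 in R 4.3.3, with an intensity trend, 2-sided, with Benjamini-Hochberg adjustment over all 12639. The line was the block, since the labels give each line with and without DOX; the 2 hairpins are the replicates of knockdown. Pathway lists are counts beside the background of all genes tested.

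The rule named every SNHG member and MALAT1, members with an unadjusted p under 0.05, the 6 highest and 6 lowest with hairpins of the same sign, the 4 most opposite, the 4 largest shNTC changes, the 6 of highest level and those by the level threshold, 42 in all. Members, lists and tests were chosen with earlier results of these data known. Promoters and the miRNA come from RefSeq tables (GRCh38.p14). The procedure was tested on simulated data. Figures were drawn with matplotlib 3.10.9. Scaling, added constant, filter, probe set choice, variance trend, block, level and left-out lines were varied.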

Additional observations from a re-analysis of the deposited data

Results flagged for a closer look

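Of the 3 members that both hairpins moved 2-fold or more, 2 had a control line of opposite sign. Members with smaller hairpin changes could have this too, as LINC00261 did. LINC01588 differed by -0.32 with DOX in shNTC and by 1.86 and 1.47 in shCNOT3-1 and shCNOT3-2, and the change beyond shNTC was 1.98 (limma, adjusted p = 0.280). DLGAP1-AS6 differed by -0.92 in shNTC and by 1.22 and 1.57, and the change beyond shNTC was 2.31 (limma, adjusted p = 0.294). Neither difference passed the test.

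Probe sets annotated with several genes were left out of every comparison above. Among them 56 listed a candidate long non-coding RNA at or above the member level, and 26 of these listed only a host gene and the small RNAs it carries, for 15 host genes, none of them a member. The knockdown changes of these 26 ran from -0.71 to 0.89 with a median of -0.11. Both hairpins were lower in 15 (57.7%), higher in 4 (15.4%) and opposite in 7 (26.9%), beside 26.9%, 33.2% and 39.9% of all genes tested. The control line was lower too. The median of the 26 was -0.27 in shNTC, -0.13 in shCNOT3-1 and -0.10 in shCNOT3-2, so the lower values are not particular to the knockdown lines. Several of these probe sets share a host gene, so they are not 26 independent readings. Of the 26, 0 were at least 2-fold different in both hairpins, a count of sizes with no test. No group held enough arrays to look for a single outlying one.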

How the results depend on the processing

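Called members numbered 2 under every scaling, with an added constant of 16, a filter at log2 7, probe sets without the _x_at and _s_at endings, member levels of 6 and 8, platform symbols and, chosen after seeing the data, a filter with controls counted in. There were 0 without the filter on dim genes, with the mean of probe sets and without the intensity trend, and 0 to 2 with 1 line left out, 0 being without shCNOT3-1; that fit takes its spread from the shNTC pair only. With no replicate block 5 passed: OIP5-AS1, LINC01588, DLGAP1-AS6, LINC00621 and LINC02762. Over all genes tested, 37 calls became 26 after quantile normalization, 67 with equal medians, 53 with the filter at 7, 3 without the filter, 6 with the mean of probe sets, 0 without the trend, 191 with no replicate block, 28 with controls counted in the filter, and 59, 39 and 73 without shNTC, shCNOT3-1 and shCNOT3-2. No member was called beyond shNTC under any alternative run.

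Members higher at an unadjusted p under 0.05 numbered 6 to 12 with a line left out (6 without shCNOT3-1) and 21 of 401 with a member level of 6. The members' median change, 0.04, was -0.028 to 0.046 with a line left out and -0.039 with a level of 8, so it has no settled sign. Without _x_at and _s_at probe sets ZNF232-AS1 turned to 0.028 and FAM131B-AS2 to -0.40. The median change in shNTC stayed between -0.13 and -0.12. The causes were not tested. Of 322 alternative values for the 25 named members with only an unadjusted p under 0.05, 317 kept direction and side of the threshold. These members had both hairpins on 1 side of 0 and were not called, and several settings leave the change itself untouched. That outcome was therefore largely fixed in advance and is no support for them. Precision is limited by the number of arrays, 6.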
